A study of Mus musculus with 2 samples.

Results

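The genes described here are 10 interferon-inducible GTPase genes of the mouse, 4 immunity-related GTPases (IRGs; *Iigp1*, *Irgm1*, *Irgm2* and *Igtp*) and 6 guanylate-binding proteins (GBPs; *Gbp2*, *Gbp3*, *Gbp4*, *Gbp5*, *Gbp6* and *Gbp7*). They were taken by name from the 27998 genes of a single-cell RNA-seq data set of mouse ear skin, and all 10 had UMIs in both libraries. The data set holds 1 library of healthy ear skin (control) and 1 library of ear skin with allergic contact dermatitis (ACD), both from male ICR mice of 7 to 8 weeks of age. ACD mice had been sensitized on the back with 1.0% DNFB (2,4-dinitrofluorobenzene, a hapten that binds skin proteins and calls up T cells), were challenged on the ears with 0.2% DNFB 6 days later, and were sampled 60 hr after that challenge. No allele, transgene or drug other than DNFB is named for either group, and whether animals were pooled within a library is not given in the sources used here. Ear skin was digested with collagenase D and DNase1 and dead cells were removed, so a class of cells appears in the share that survived that digestion.

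Both families are large GTPases that cells make in quantity once interferon, above all interferon-γ, has bound its receptor. IRGs are divided by a short motif in their nucleotide-binding loop into GKS proteins such as Iigp1 (Irga6), which load onto the membrane of a vacuole that holds a parasite or bacterium, and GMS proteins (Irgm1, Irgm2 and Igtp, also called Irgm3), which sit on the cell's own membranes and keep the GKS proteins inactive there. GBPs are dynamin-like proteins that coat such vacuoles and free bacteria and help caspases to sense what is inside, and most of their mouse genes lie in 1 cluster on chromosome 3 and 1 on chromosome 5.

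In GENCODE M21 gene models on the build used for alignment (GRCm38), *Gbp5* (chr3:142493978-142522344), *Gbp7* (chr3:142530342-142550149), *Gbp3* (chr3:142560026-142573209) and *Gbp2* (chr3:142620602-142638008) follow each other on the plus strand. *Gbp4* (chr5:105115767-105139586) and *Gbp6* (chr5:105270702-105293698) are on the minus strand of chromosome 5. *Irgm1* (chr11:48861968-48871683, minus strand) is on chromosome 11. On the same chromosome, *Igtp* (chr11:58199556-58207591) lies inside the span of *Irgm2* (chr11:58199618-58222782) for most of its length, on the same plus strand. Under these models, reads in shared sequence cannot be assigned to 1 of them by position alone. *Gbp6* is covered to 99.99% by another gene model, and its level is uncertain for that reason. The gene models used for counting may differ from these.

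Promoters (250 bases before to 50 after the start, RefSeq on GRCm38.p6) were at hand for 7 members, and they are shown because these genes were higher together in ACD in nearly all cell classes below. A GAAA followed after any 2 bases by a second GAAA, the core of an interferon-stimulated response element, was found on either strand in the promoters of 7 of those 7 genes (7 of 8 promoters, since *Gbp3* has 2), against 3.44% of 32851 mouse promoters of the same 300 bases. This share describes these letters only and shows no binding. The following stretches run 5′ to 3′ on the gene's strand, with the core of the response element (or its reverse complement) in capitals, and of the pair of overlapping matches in *Irgm1* and in *Gbp3* the one farther from the start is marked.
Irgm1: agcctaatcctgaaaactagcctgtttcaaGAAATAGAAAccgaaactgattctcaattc
Irgm2: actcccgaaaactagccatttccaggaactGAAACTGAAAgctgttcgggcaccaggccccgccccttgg
Igtp: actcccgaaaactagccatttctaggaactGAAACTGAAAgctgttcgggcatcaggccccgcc
Gbp2: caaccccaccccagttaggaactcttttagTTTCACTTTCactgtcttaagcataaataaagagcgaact
Gbp3: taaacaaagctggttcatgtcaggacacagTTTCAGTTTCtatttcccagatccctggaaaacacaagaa
Gbp5: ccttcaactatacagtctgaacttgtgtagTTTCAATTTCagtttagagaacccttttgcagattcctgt
Gbp7: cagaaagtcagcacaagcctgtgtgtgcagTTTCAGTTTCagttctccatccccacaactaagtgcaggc
They lie at chr11:48871421-48871480 (*Irgm1*, minus strand), chr11:58214883-58214952 (*Irgm2*), chr11:58199492-58199555 (*Igtp*), chr3:142620574-142620643 (*Gbp2*), chr3:142559969-142560038 (*Gbp3*), chr3:142496739-142496808 (*Gbp5*) and chr3:142530253-142530322 (*Gbp7*), the last 6 on the plus strand. The first capital was 30, 64, 34, 59, 45, 165 and 53 bases upstream of the RefSeq start, in the same order. The *Irgm2* and *Igtp* stretches differed at 2 of the 64 bases they share.

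Barcodes were kept as cells with over 200 but under 5000 genes, no more than 25000 UMIs and a mitochondrial share under 8%, which left 12213 of 12895 control and 11665 of 13163 ACD barcodes, with a median of 6850 and 7447 UMIs. Cells were given a class by marker genes that hold no member, and 72.6% of control and 71.5% of ACD cells fell in 1 of 10 classes. Control and ACD cells numbered 3796 and 1683 for fibroblasts, 3189 and 2239 for chondrocytes of the ear cartilage, 533 and 2528 for T cells, 388 and 159 for pericytes, 301 and 295 for glia, 210 and 191 for melanocytes, 156 and 119 for keratinocytes, 149 and 529 for myeloid cells, 143 and 119 for endothelial cells and 5 and 475 for NK cells. The gates used these markers, so their levels are no independent check of the class names, and no marker of a class was at 0 in its own cells except 1 NK marker in the 5 control NK cells. This holds for the 9 classes other than myeloid cells, which unite several types. The libraries shared 47 cell barcodes. A level below is the sum of a gene's UMIs over a class per 1000000 UMIs of that class (CPM), and since each UMI marks 1 captured 3′ end it was not scaled to gene length. Each condition is 1 library, so differences have no replicate check and carry no p-value, and the 95% intervals cover counting error only.

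All 10 genes were higher in ACD. Over all kept cells their summed level was 67.5 CPM in control and 699 CPM in ACD, a log2 ratio of 3.37 (3.34 to 3.41), and 10 of 10 were at least 2-fold higher, where 8.91% of 15356 genes were. This sum mixes cells of different kinds whose numbers differed between the libraries, and the same comparison was therefore made inside each class. Of the 100 pairs of a member and a class, 88 were at least 2-fold higher in ACD, and 79 of them had the whole interval above that fold. The share of all genes at least 2-fold higher was 3.3% in fibroblasts, 2.84% in pericytes, 3.98% in endothelial cells, 2.34% in keratinocytes, 2.01% in chondrocytes, 2.23% in glia, 2.02% in melanocytes, 4% in T cells, 4.35% in NK cells and 7.94% in myeloid cells. These shares are over genes with at least 50 UMIs in the class, a minimum that 81 of the 100 pairs reach. In 13 pairs the control class held no UMI and the ratio is a lower bound at 3 UMIs, and in 7 pairs no ratio could be given. A single pair was at least 2-fold lower, *Irgm1* in NK cells, with 1 control UMI and an interval that spans 0 (−3.93 to 3.96 in log2), where 17.8% of all genes were that much lower. Since only 5 control cells were NK cells, NK cells are described in ACD alone below, and without them 87 of 90 pairs were at least 2-fold higher. With 10 CPM added to both levels, which shrinks the ratios of low genes, 73 of the 90 were, and in chondrocytes 3 of 10. Without that addition, the 3 of the 90 pairs not past the fold were *Gbp5* in keratinocytes (0 and 4 UMIs) and, in myeloid cells, *Irgm2* (0 and 25 UMIs) and *Gbp6* (0 and 5 UMIs). In each of them the control count of 0 sets the limit.

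**Figure D1:**
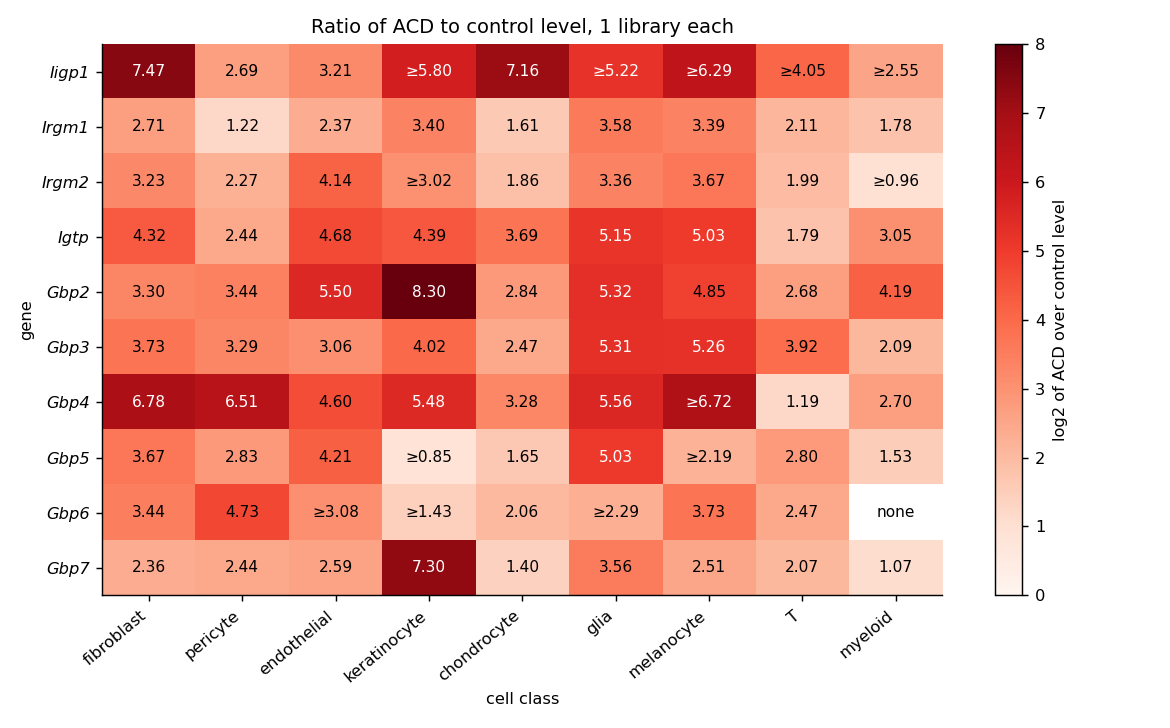
Heat map of the log2 ratio of the level (UMIs per 1000000 UMIs of the class) in ACD over control, genes in rows and the 9 classes other than NK cells in columns, with the ratio printed in each field, a sign of at least where control held no UMI, and "none" where no ratio could be given. Of the 90 fields 87 are at a log2 of 1 or more, and *Iigp1* in fibroblasts is at 7.47.

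*Iigp1* (chr18:60376027-60392634, plus strand), the GKS effector of the 10, had a wide spread between classes. In control skin it was found at 141 CPM in pericytes (255 UMIs) and at 71.3 CPM in endothelial cells (71 UMIs), but at 2.13 CPM in fibroblasts (65 UMIs) and 0.186 CPM in chondrocytes (5 UMIs). No *Iigp1* UMI was found in control keratinocytes, glia, melanocytes, T cells or myeloid cells. There 3 UMIs would give 1.39, 3.20, 2.84, 1.21 and 4.79 CPM, and the exact interval reaches 1.70, 3.93, 3.49, 1.48 and 5.89 CPM. Cells of the vessel wall thus held most of this transcript in healthy skin, with 56.8% of its control UMIs in pericytes and 15.8% in endothelial cells. In ACD the order of the classes was kept at the top, at 914 CPM in pericytes (865 to 965) and 662 in endothelial cells (619 to 708), but fibroblasts now followed at 376 (368 to 385) and melanocytes at 223 (198 to 251). Glia were at 119 and keratinocytes at 77.3 CPM, whereas myeloid cells (28.0), chondrocytes (26.5), T cells (20) and NK cells (14.1) were lowest and overlapped in part within their counting error.

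The *Iigp1* ratio differed between the classes of the vessel wall and fibroblasts. It was 2.69 in log2 in pericytes (2.50 to 2.89) and 3.21 in endothelial cells (2.86 to 3.58). Against these, it was 7.47 in fibroblasts (7.12 to 7.84), a level 177-fold higher in ACD than in control fibroblasts. In fibroblasts it ranked 3 of 12327 genes by ratio, with genes without a control UMI placed at their lower bound here and in the ranks below, so that such genes may rank too low, and in chondrocytes, at 7.16 (5.93 to 8.78), it ranked 2 of 12310, although *Iigp1* in ACD chondrocytes was at 7.03% of its fibroblast level where fibroblast markers were at 20.2% of theirs. Where control held none the log2 ratio was at least 6.29 in melanocytes, at least 5.80 in keratinocytes, at least 5.22 in glia, at least 4.05 in T cells and at least 2.55 in myeloid cells. Fibroblasts held 46.9% of all *Iigp1* UMIs in ACD and 14.5% in control, although their share of all UMIs went from 33.2% to 18.7%.

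**Figure D2:**
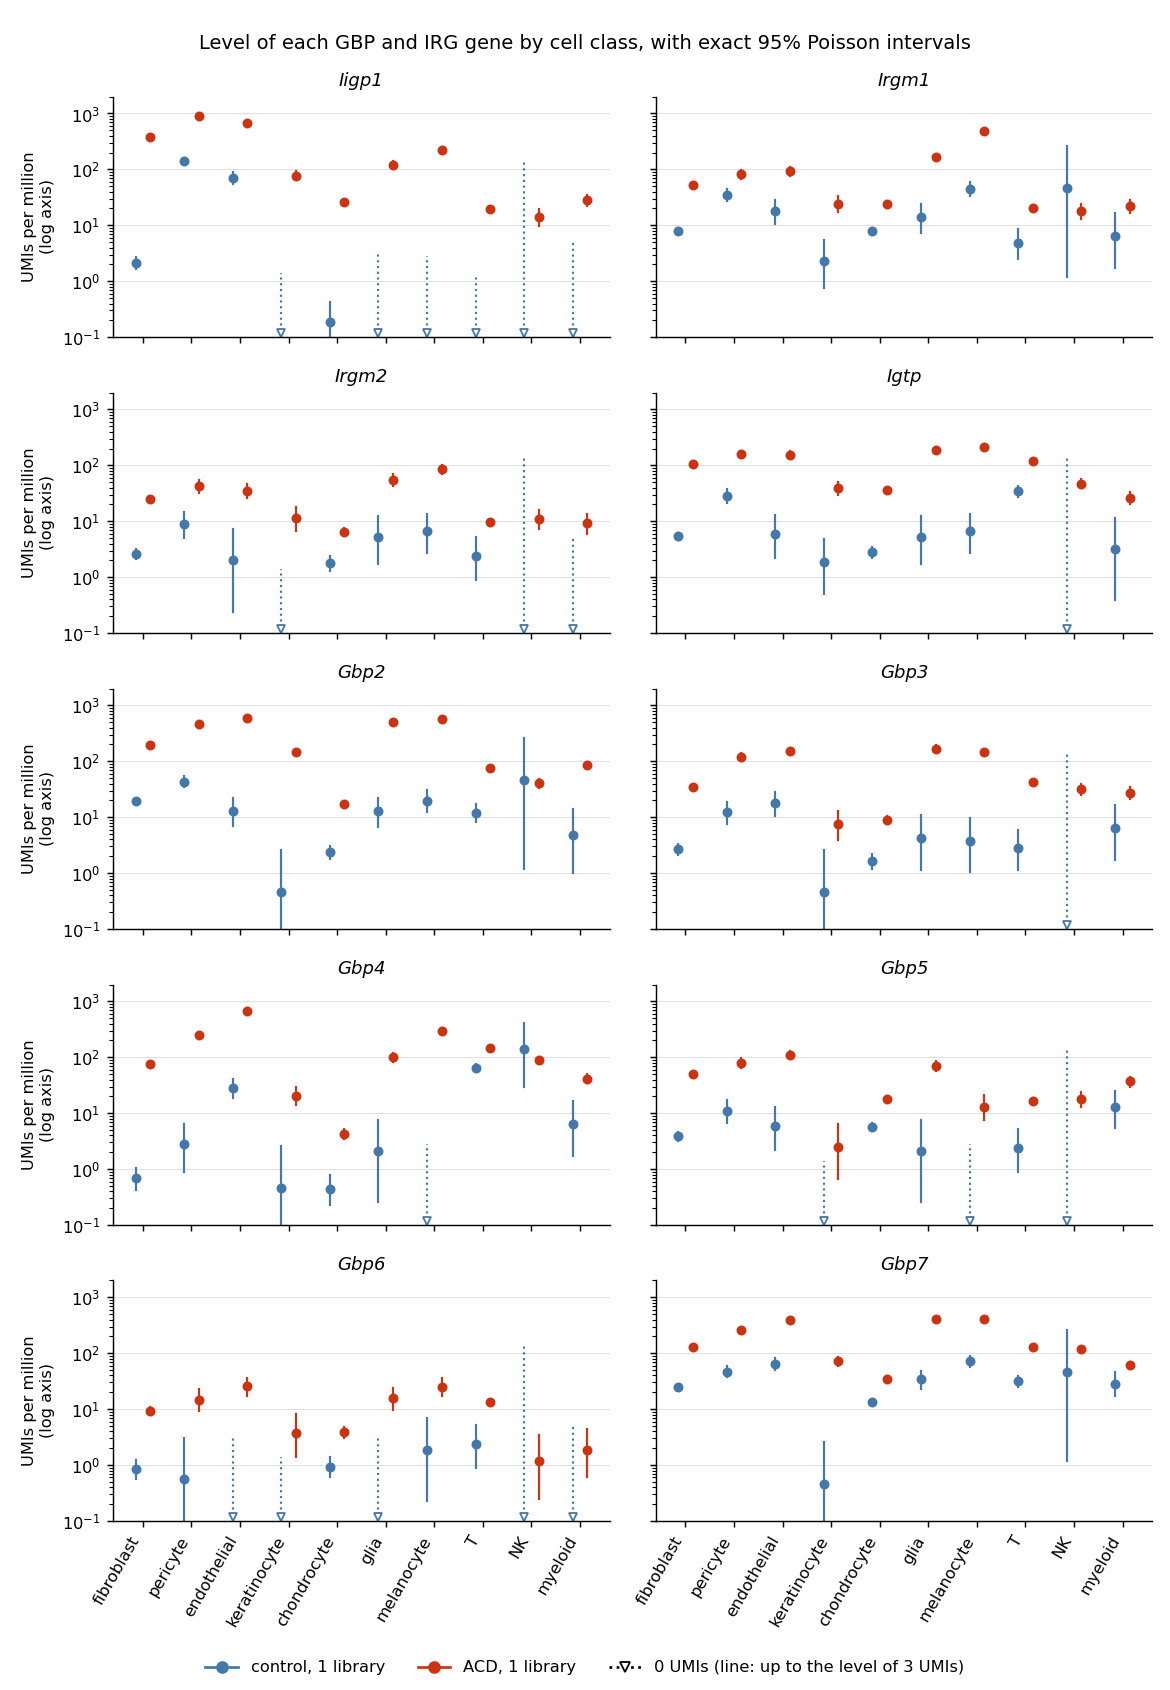
Level of each of the 10 genes (UMIs per 1000000 UMIs of the class, log axis) in control and ACD for each cell class, with exact Poisson 95% intervals. Open marks on a dotted line stand for classes with no UMI and reach the level that 3 UMIs would give, as for *Iigp1* in control melanocytes, where ACD was at 223 CPM.

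The GMS regulators had lower ratios than *Iigp1* in fibroblasts. *Irgm1*, which guards the cell's own membranes, was at 9.37 CPM in all control cells and 44.0 in ACD (864 and 4388 UMIs). Its highest level was in melanocytes in ACD, which were at 45.5 CPM in control and 478 in ACD, a log2 ratio of 3.39 (2.97 to 3.85). The next class in ACD was glia at 166 CPM (13.9 in control, log2 3.58), followed by endothelial cells at 93.3 and pericytes at 82.6. In pericytes, with 35.5 CPM in control, its ratio was the lowest of the 10 genes there, at 1.22 (0.77 to 1.68). Fibroblasts were at 8.05 and 52.7 CPM (log2 2.71), chondrocytes at 7.79 and 23.8 (1.61), T cells at 4.82 and 20.8 (2.11) and keratinocytes at 2.31 and 24.3 (3.40, 2.05 to 5.10, with 5 control UMIs).

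*Igtp* (Irgm3), the GMS protein that lies on the endoplasmic reticulum and lipid droplets, had a larger ratio than *Irgm1* in each class other than T cells and NK cells, and than *Irgm2* in fibroblasts, pericytes, endothelial cells, chondrocytes, glia and melanocytes. In fibroblasts it was at 5.40 CPM in control and 108 in ACD, a log2 ratio of 4.32 (4.09 to 4.56). Glia went from 5.33 to 189 CPM (log2 5.15, 3.91 to 6.78) and melanocytes from 6.63 to 217 (5.03, 3.97 to 6.36). T cells held 34.2 CPM of *Igtp* in control, next to pericytes at 28.8 with overlapping intervals, and 118 in ACD, for a ratio of 1.79 (1.47 to 2.12). *Irgm2*, a Golgi-associated GMS protein, was sparser, at 2.47 CPM in all control cells and 16.0 in ACD. Its highest ACD levels were 84.4 CPM in melanocytes, 54.8 in glia and 42.7 in pericytes. The *Irgm2* ratio was 3.23 in fibroblasts (2.88 to 3.59), 3.67 in melanocytes (2.57 to 5.02) and 1.99 in T cells (0.84 to 3.45), and in endothelial cells 2 control UMIs gave 4.14 with an interval of 2.21 to 7.23.

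Of the chromosome 3 cluster, *Gbp2* and *Gbp7* held most UMIs. *Gbp2* was at 11.1 CPM in all control cells and 125 in ACD (1023 and 12496 UMIs). Its ACD levels were 593 CPM in endothelial cells (551 to 636), 573 in melanocytes (532 to 617), 511 in glia (472 to 551) and 468 in pericytes (433 to 505), and these 4 intervals overlap their neighbours. Fibroblasts followed at 196, then keratinocytes at 145, myeloid cells at 87.2, T cells at 77.1 and chondrocytes at 17.0 CPM. In endothelial cells *Gbp2* went from 13.1 CPM, a log2 ratio of 5.50 (4.72 to 6.42), and in glia from 12.8, a ratio of 5.32 (4.51 to 6.28). In keratinocytes, the epithelial cells of the epidermis, 1 UMI in control and 233 in ACD gave a ratio of 8.30 (5.80 to 13.61). The ratio was 4.85 in melanocytes (19.9 CPM in control), 3.44 in pericytes (43.3), 3.30 in fibroblasts (19.9), 2.84 in chondrocytes (2.37) and 2.68 in T cells (12.1).

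*Gbp7* was the member with most UMIs in control, at 21.4 CPM of all cells (1972 UMIs), and it had the lowest ratio of the 10 genes in fibroblasts. Control melanocytes (72.0 CPM), endothelial cells (64.3) and pericytes (47.1) had the highest levels, and fibroblasts were at 25.3. In ACD it was at 411 CPM in melanocytes, 403 in glia, 388 in endothelial cells and 256 in pericytes, followed by T cells (132) and fibroblasts (130), whose intervals overlap. The log2 ratio was 2.36 in fibroblasts (2.24 to 2.48), 2.51 in melanocytes, 2.59 in endothelial cells, 2.07 in T cells, 1.40 in chondrocytes and 1.07 in myeloid cells (0.37 to 1.86). In NK cells of ACD it was the member with the highest level, at 117 CPM (104 to 131).

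*Gbp3* and *Gbp5* were less abundant, at 2.66 and 4.40 CPM in all control cells and 36.3 and 31.1 in ACD. *Gbp3* in ACD was highest in glia (169 CPM), followed by endothelial cells (151), melanocytes (145) and pericytes (120), and the intervals of neighbours in that order overlap, whereas those of glia and pericytes do not. Its log2 ratio was 5.31 in glia (3.93 to 7.20, 4 control UMIs), 5.26 in melanocytes (3.88 to 7.15, 4 control UMIs), 3.73 in fibroblasts (3.40 to 4.08) and 3.92 in T cells (2.87 to 5.24), the largest T-cell ratio among members with a control UMI. *Gbp5*, a GBP tied to inflammasome activation, departed from the rest in melanocytes. There it was at 13 CPM in ACD (16 UMIs) with none in control, whereas the 5 other GBPs were at 25.1 to 573 CPM in the same cells. Its highest ACD levels were 112 CPM in endothelial cells (94.3 to 132), 79.1 in pericytes and 69.7 in glia, and its ratio in fibroblasts was 3.67 (3.39 to 3.96).

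Of the chromosome 5 pair, *Gbp4* was highest in T cells among the control classes other than NK cells. Control T cells held it at 63.9 CPM (54.3 to 74.6), endothelial cells at 28.1 (18.7 to 40.6), and pericytes and fibroblasts at 2.77 and 0.687, and T cells held 47.5% of all its control UMIs. In ACD the highest level was in endothelial cells at 680 CPM (636 to 726), then 299 in melanocytes, 252 in pericytes, 146 in T cells, 100 in glia, 88.7 in NK cells and 75.7 in fibroblasts. Its ratio accordingly ran from 1.19 in T cells (0.96 to 1.43), the lowest of the 10 genes there, to 6.78 in fibroblasts (6.17 to 7.48), 6.51 in pericytes (5.27 to 8.14) and at least 6.72 in melanocytes. In fibroblasts this ranked 5 of 12327 genes and in pericytes 3 of 6468. *Gbp6* was the rarest member, with 85 control and 857 ACD UMIs in all cells, and its log2 ratio was 3.22 (2.90 to 3.56) in all cells, 3.44 in fibroblasts (2.84 to 4.10) and 2.47 in T cells (1.32 to 3.93).

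The member UMIs were made up differently in the 2 libraries in some classes and alike in others. In fibroblasts the 4 IRGs were 25.5% of member UMIs in control and 53.1% in ACD, as *Iigp1* went from 2.98% to 35.6% while *Gbp7* went from 35.4% to 12.3%. Chondrocytes went the same way, from 34.1% to 51.7% IRGs. In pericytes the direction was the opposite, with IRGs at 64.7% in control and 50.1% in ACD, and *Iigp1* at 42.6% and 38.3%. In endothelial cells IRGs were 42.9% and 32.7%. Glia (30.7% and 29.4%), melanocytes (37.6% and 40.6%) and T cells (26.5% and 28.2%) had similar IRG shares in control and ACD. Inside these shares *Gbp7* went from 46.1% to 16.7% of melanocyte member UMIs, and *Gbp4* from 40.9% to 24.5% of those of T cells.

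**Figure D3:**
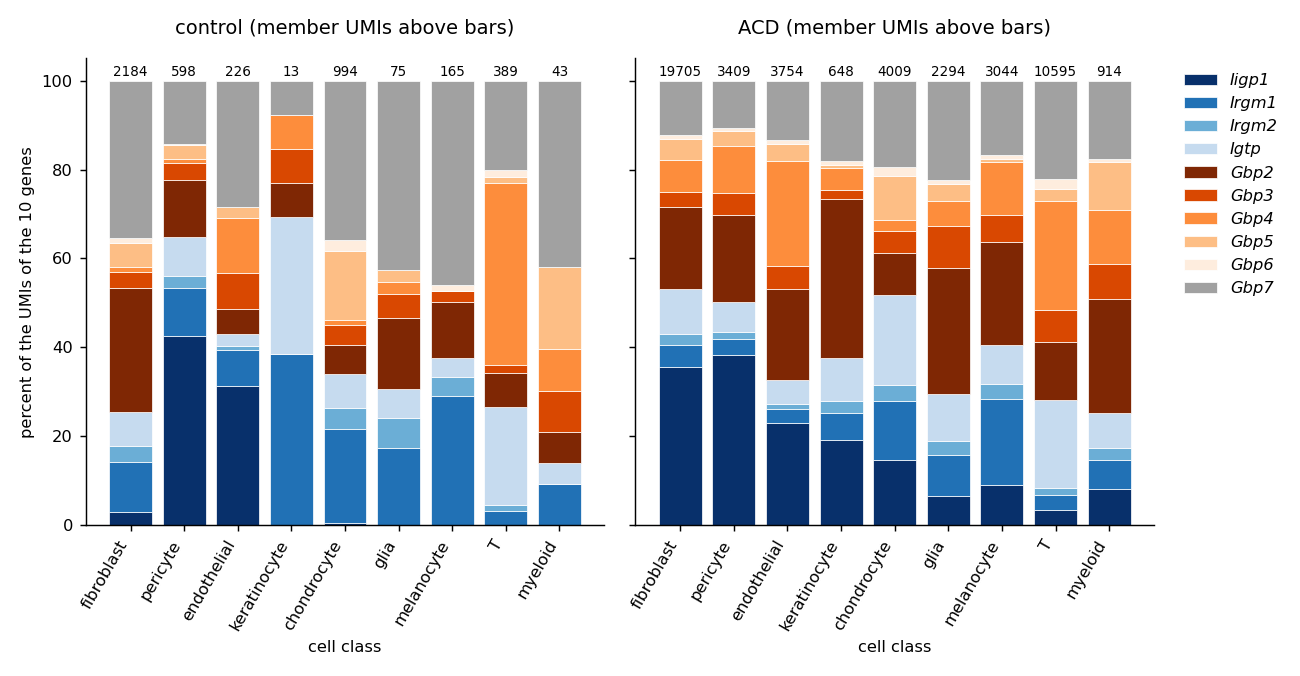
Share of each of the 10 genes in the summed member UMIs of a class (percent, bars stacked to 100, member UMIs above each bar), control in the left panel and ACD in the right one, for 9 classes. The *Iigp1* share in fibroblasts goes from 2.98% to 35.6%, and the control keratinocyte bar rests on 13 UMIs.

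Summed over the 10 genes, endothelial cells were highest in ACD at 2893 CPM (2801 to 2987), followed by melanocytes at 2469 (2382 to 2558) and pericytes at 2386 (2307 to 2468), whose intervals overlap. Glia were next at 1797 (1724 to 1872), then fibroblasts at 1058, T cells at 596, keratinocytes at 404 (373 to 436) and NK cells at 388 (364 to 413), whose intervals overlap, myeloid cells at 341, and chondrocytes at 180. In control the order differed, with pericytes at 332 CPM, endothelial cells at 227, melanocytes and T cells both at 156, glia at 79.9, fibroblasts at 71.4, myeloid cells at 68.6, chondrocytes at 36.9 and keratinocytes at 6.0. The log2 ratio of the sum was 6.07 in keratinocytes (5.29 to 6.99, from 13 control UMIs), 4.49 in glia (4.16 to 4.84), 3.98 in melanocytes (3.76 to 4.22), 3.89 in fibroblasts (3.82 to 3.95), 3.67 in endothelial cells (3.48 to 3.87), 2.85 in pericytes, 2.31 in myeloid cells (1.87 to 2.79), 2.29 in chondrocytes and 1.93 in T cells (1.78 to 2.08). The median ratio of all genes in the same class lay between −0.02 and −0.10, except at −0.16 in T cells and −0.44 in NK cells.

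Markers of other classes were looked at beside these levels, since droplets can take up free RNA. In ACD the 8 fibroblast markers reached 1.02% of their fibroblast level in keratinocytes, 2.16% in endothelial cells, 2.24% in T cells, 2.51% in melanocytes, 3.70% in myeloid cells, 5.45% in glia and 6.12% in pericytes. The summed members were at 38.2% of the fibroblast level in keratinocytes, 274% in endothelial cells, 56.3% in T cells, 233% in melanocytes, 32.2% in myeloid cells, 170% in glia and 226% in pericytes. In chondrocytes both were close, with fibroblast markers at 20.2% and members at 17.0% of the fibroblast level, and the part of free or fibroblast RNA in the chondrocyte values was not tested. For *Iigp1* alone the share of the fibroblast level was 7.03% in chondrocytes, 5.30% in T cells and 3.73% in NK cells, beside marker shares of 20.2%, 2.24% and 2.56%. T-cell markers reached 0.580% of their T-cell level in ACD fibroblasts. In control chondrocytes fibroblast markers were at 18.3% and members at 51.6% of the fibroblast level. In keratinocytes the 6 neutrophil markers went from 1.39 CPM in control (4 of 6 at 0) to 337 in ACD (3 of 6 at 0), and their part in the keratinocyte values was not tested. The pericyte class also held 5 smooth muscle markers at 1887 CPM in control and 1815 in ACD, beside its own markers at 13098 and 9042. The part of smooth muscle cells in the pericyte values was not tested.

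Cells were thinned to 2000 UMIs to compare shares of cells at 1 depth. The share with at least 1 member UMI was then 12.6% of control and 54.9% of ACD fibroblasts, 33.8% and 78.0% of pericytes, and 26.7% and 87.3% of endothelial cells. It was 11.1% and 68.5% of glia, 23.8% and 70.1% of melanocytes, 22.8% and 57.8% of T cells and 5.63% and 16.9% of chondrocytes. Of 156 control keratinocytes none held a member UMI at that depth, which allows a share of up to 1.92% at 3 cells and of 2.34% by the exact interval, against 23.9% of ACD keratinocytes. Without thinning the shares were 35.5% and 81.6% in fibroblasts and 7.05% and 52.9% in keratinocytes. Cells too shallow for thinning numbered 39 and 16 among fibroblasts, 67 and 28 among glia and 70 and 125 among myeloid cells. As a low reference within ACD, 0.652% of NK cells (median 4342 UMIs) held an *Iigp1* UMI after thinning, where 27.9% of fibroblasts (median 10236 UMIs) and 56.0% of pericytes (median 8235 UMIs) did.

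High member counts per cell were found in ACD. At 2000 UMIs, 44.1% of ACD endothelial cells, 36.7% of melanocytes, 34.0% of pericytes, 29.2% of glia and 13.6% of fibroblasts held 5 or more member UMIs, against 2.29%, 0.541%, 1.58%, 0.427% and 0.0266% in control. T cells reached 5.98% in ACD with none of 513 in control, although 57.8% of them held at least 1 member UMI. Cells with UMIs of at least 5 of the 10 genes made up 22.9% of ACD endothelial cells, 20.3% of melanocytes, 13.8% of pericytes, 12% of glia and 4.44% of fibroblasts.

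**Figure D4:**
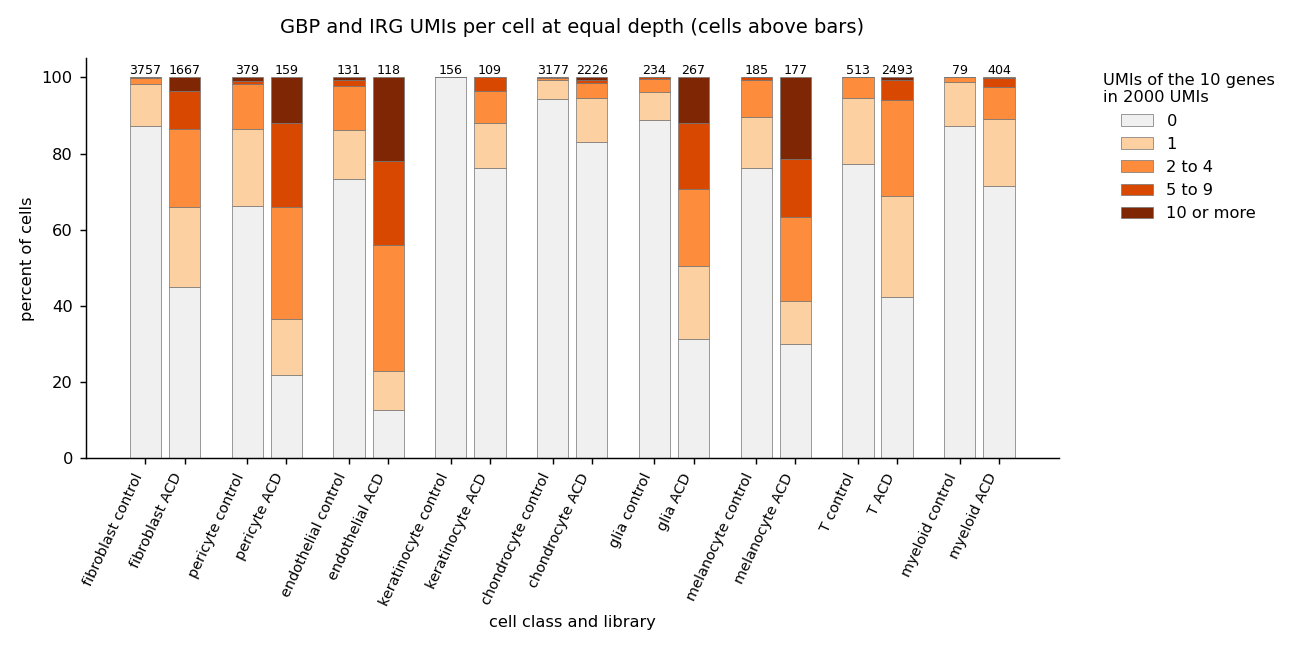
Stacked bars of the percent of cells with 0, 1, 2 to 4, 5 to 9 and 10 or more summed member UMIs after thinning to 2000 UMIs, control beside ACD for each of 9 classes, with the number of cells above each bar. In ACD endothelial cells 44.1% of cells hold 5 or more member UMIs, in ACD T cells 5.98%.

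Fibroblasts were described further because they held 28.3% of member UMIs in ACD. In 11 clusters with at least 50 fibroblasts, built without the member genes, the summed level was 35.7 to 348 CPM in control and 429 to 1797 in ACD, and it was higher in ACD in each of the 11. Other interferon-induced genes were not removed before clustering, so clusters may be split in part by that response, which was not tested. The lowest control value rests on 5 UMIs in 27 fibroblasts of a cluster in which 95.4% of gated cells were chondrocytes. The cluster with the highest ACD level held 9 control and 380 ACD fibroblasts, at 348 (229 to 507) and 1797 (1763 to 1833) CPM, and it made up 22.6% of ACD fibroblasts. The cluster with the lowest ACD level held 828 control and 104 ACD fibroblasts, at 65 and 429 CPM. Different clusters therefore made up most of the class in the 2 libraries, and the ACD excess was present inside clusters found in both. *Cxcl9* encodes a chemokine ligand of CXCR3 that is induced by interferon-γ. The 366 ACD fibroblasts with a *Cxcl9* UMI were at 1827 CPM for the summed members and the 1317 without were at 752, beside 136 (97.2 to 185) in the 27 control fibroblasts with it and 70.8 in the 3769 without. Depth moves with that split, at a median of 14320.5 UMIs in cells with and 9239 in cells without *Cxcl9*, and its part in the difference was not tested. *Iigp1* was at 720 CPM in the first and 240 in the second group, *Gbp4* at 166 and 39.7, and *Gbp7* at 187 and 107.

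**Figure D5:**
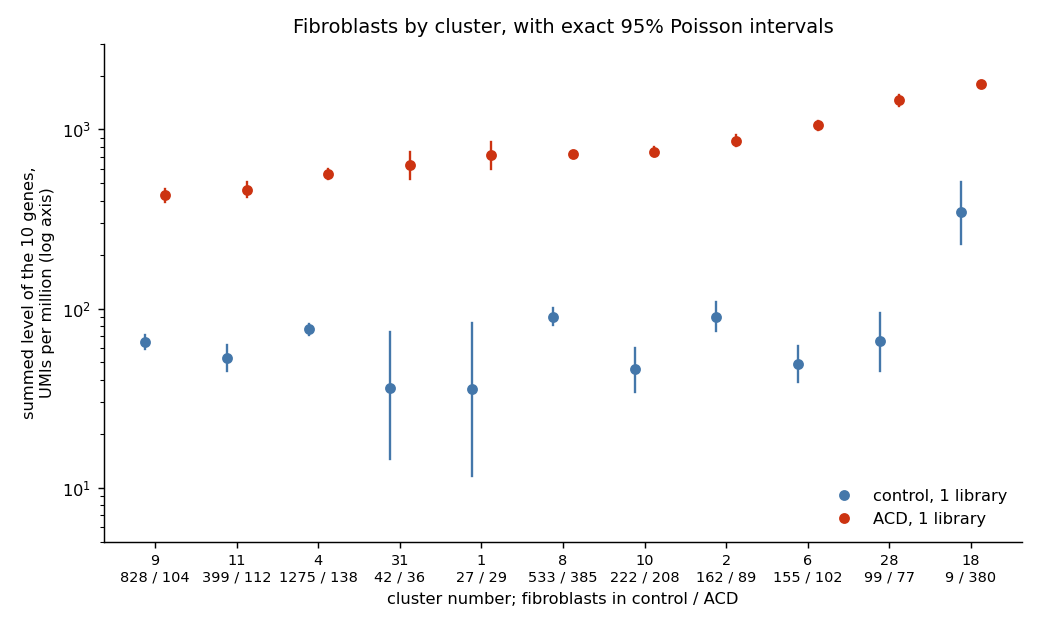
Summed level of the 10 genes (UMIs per 1000000, log axis) in control and ACD fibroblasts of each cluster with at least 50 fibroblasts, with exact Poisson 95% intervals. ACD lies above control in each of the 11 clusters, from 429 to 1797 CPM.

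T cells were the class with the lowest ratio of the summed members outside NK cells in the main values, with a counting interval that overlaps that of myeloid cells. The T cells with a *Cd4* UMI were at 293 CPM in control and 650 in ACD (log2 1.15), those with a UMI of a *Cd8* chain at 316 and 383 (0.28, from 13 control cells), and those with neither at 133 and 741 (2.47). In that order, control and ACD cells numbered 43 and 767, 13 and 646, and 476 and 1084, so the mix of T cells differed between the libraries. Of all 10 members, 4 were at least 2-fold higher in the *Cd4* cells, where 9 had a ratio. In the *Cd8* cells it was 0, where 6 had a ratio, and in the cells with neither it was 10. Members without a ratio had no control UMI. The share of all genes at least 2-fold higher, over genes with at least 50 UMIs, was 7.56%, 6.66% and 3% in the same order. The clusters that make up T cells also differed, since 51.0% of control T cells fell in a cluster that holds 17.1% of ACD T cells. In the 5 clusters with at least 20 T cells in each library, the sum went from 276 to 425, 132 to 825, 343 to 1193, 175 to 443 and 117 to 420 CPM. T and NK cells were also the classes with the highest level of *Ifng*, the gene of interferon-γ, at 25.7 CPM in control and 266 in ACD T cells and at 481 CPM in ACD NK cells, against at most 10.8 CPM (endothelial cells, 14 UMIs) in the other ACD classes. The myeloid class was made up differently in the libraries, with 82 mast cells of 149 cells in control against 188 basophils, 130 mast cells and 64 neutrophils of 529 in ACD. Among myeloid cells, macrophages were at 145 CPM in control and 984 in ACD (log2 2.76), dendritic cells at 56.4 and 310 (2.46) and mast cells at 7.38 and 162, from 1 control UMI. ACD neutrophils were at 421 and basophils at 138 CPM, with too few control cells to compare.

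The other genes of both families were measured as a list of 17, of which 15 were in the files. Of these 15, 12 were at least 2-fold higher in ACD and 0 were 2-fold lower. Of all genes with at least 50 UMIs over all cells, 8.91% were at least 2-fold higher. The median log2 ratio of the 13 listed genes that reach this minimum was 3.43, beside −0.05 for all genes. Several of the 13 reach it mainly through their ACD UMIs. *Gbp2b* (the mouse Gbp1) was at 0.0651 CPM in control and 3.03 in ACD (log2 5.54, 6 control UMIs), *Gbp8* at 0.911 and 9.79 (3.43), *Gbp9* at 1.76 and 24.3 (3.79) and *Gbp10* at 0.249 and 4.11 (4.04). Among IRGs, the GKS genes *Tgtp1* (5.49) and *Tgtp2* (4.69), which are near-identical copies that share reads, and *Ifi47* (2.80) were higher. Further family genes were *Gm4951* (5.03), *Gm4841* (2.29), *F830016B08Rik* (2.24), *9930111J21Rik1* (2.10) and *9930111J21Rik2* (1.56). *Irgq*, a quasi-GTPase of the IRG family, was the gene of the 13 that was lower, at 15.4 and 11.7 CPM (−0.40, −0.51 to −0.29). *Gm5431* had 0 and 5 UMIs and *Gvin1* 0 and 2. In fibroblasts 10 of the 15 were at least 2-fold higher, where 3.3% of all genes with at least 50 UMIs were. The median was 4.39 over the 12 that reach that minimum there. In T cells 6 of the 8 that reach it were at least 2-fold higher (median 1.26), where 4% were. Since UMIs of both libraries count towards the minimum, a gene can reach it through ACD alone. The medians and the T-cell count are limited by that choice.

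A list of 16 genes was measured that holds the chain from interferon receptor to transcription factor, related factors and feedback inhibitors. In all cells 4 of 16 were at least 2-fold higher in ACD and 0 lower, with a median log2 ratio of 0.43, where 8.91% of all genes were higher, and in fibroblasts 5 of 16, with a median of 0.31, where 3.3% were. The log2 ratios of the genes with most UMIs in fibroblasts were −0.01 for the interferon-γ receptor chain *Ifngr1*, −0.08 for the kinase *Jak1*, 0.33 for *Ifnar2*, 0.11 for the factor *Irf1*, and 0.73 and 0.28 for the feedback inhibitors *Socs1* and *Socs3*. *Irf1* was at 623 CPM in control and 673 in ACD fibroblasts, so this factor was abundant in the control library too. Genes past the fold in fibroblasts, which are named after their values were seen, included *Batf2* (4.72, from 0.818 to 21.6 CPM), *Nlrc5* (3.98), *Irf8* (2.13) and *Irf9* (1.24).

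Proteins that act with GBPs and IRGs at membranes, that is the ATG8 conjugation machinery, ubiquitin readers, inflammasome proteins and the prenylation enzymes that anchor some GBPs, were measured with 20 genes. In all cells 3 of 20 were at least 2-fold higher and 0 lower (median 0.02), where 8.91% of all genes were higher, and in fibroblasts 2 of 19 (median −0.05), where 3.3% were. The genes with most UMIs had log2 ratios in fibroblasts of 0.21 for *Gabarap*, −0.07 for *Map1lc3b*, −0.09 for *Sqstm1*, −0.06 for *Gabarapl2*, −0.19 for *Gabarapl1* and −0.05 for *Atg3*. The 3 genes past the fold over all cells, also named after their values were seen, were the caspases *Casp1* (2.24) and *Casp4* (1.32) and the DNA sensor *Aim2* (2.24).

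Other interferon-induced effectors were at least 2-fold higher for 10 of 11 genes in all cells (median 2.27), where 8.91% of all genes were, and 9 of 10 in fibroblasts (median 2.91), where 3.3% were. In fibroblasts the log2 ratio was 3.57 for *Bst2* (tetherin), 2.47 for *Isg15*, 2.71 for *Ifit3*, 2.04 for *Xaf1*, 3.27 for *Rtp4* and 3.11 for *Ifit1*. The gene of this list not past the fold in fibroblasts was *Ifit2*, at 0.14 (−0.07 to 0.36), named after its value was seen. Of 10 reference genes, 0 passed the fold in fibroblasts (median 0.14) and 1 did in all cells, *Pgk1* at 1.01. In fibroblasts *Eef1a1* was at −0.02, *Actb* at 0.17, *Ppia* at 0.20, *Gapdh* at 0.52 and *Ywhaz* at −0.09.

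The 20 levels of a gene (10 classes in 2 libraries) were compared with the mean of the members on the scale of log2 of CPM plus 10. Of 11883 genes outside the members, the closest were *Zbp1* (Pearson r of 0.927), *Tap2* (0.906), *Batf2* (0.903), *Rtp4* (0.882), *Ifi47* (0.871), *B2m* (0.870), *H2-Q4* (0.867), *Gm4951* (0.865), *Ifit1* (0.857) and *Uba7* (0.852). Each member compared with the mean of the other 9 gave r from 0.789 for *Gbp5* and 0.790 for *Gbp4* to 0.954 for *Gbp2*. These 20 points come from 2 libraries and share their depth and treatment, so r describes likeness within these data only.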

How the data were processed

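Droplet 3′ single-cell libraries of control and ACD ear skin, 1 per condition, were analysed. The authors aligned the reads and counted UMIs with Cell Ranger (3.1.0 in the submitters' processing notes) on an mm10 (GRCm38) reference, and the deposited values are raw UMI counts per gene and barcode. From these, barcodes were filtered with the study's limits on genes, UMIs and mitochondrial share, which here kept more cells than the study states; the UMI limit, worded in the study as if a lower one were meant, was applied here as an upper limit of 25000. No doublet caller was applied to the main values. Each cell was scored for marker lists (mean over markers of scaled log levels) and gated at a score of 0.2 and 3 markers (fibroblasts 0.3 and a chondrocyte score under 0.15; chondrocytes above their own fibroblast score; NK cells, macrophages and dendritic cells 0.1 and 2 markers). The score limits were set after the scores and clusters were seen, and cells passing more than 1 gate (412 control, 523 ACD) were left out. A class is a marker gate, not a study annotation.

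Levels are UMIs per 1000000 class UMIs (CPM) with exact Poisson 95% intervals, ratios have exact conditional binomial intervals, and shares of cells have Clopper-Pearson intervals. A control count of 0 was replaced by 3 UMIs and the ratio written as "at least". No ratio was given with both libraries at 3 UMIs or fewer, or where the control level at 3 UMIs was not below the ACD level. Genes with at least 50 UMIs over both libraries in a class were compared with a fold of 2 and make up the shares of all genes. Of all 100 member-by-class pairs, 81 reach that minimum. The interval code was tested on simulated data. The named genes are the 10 members, all measured family genes, the 6 genes with most UMIs of each other list (some list genes and motifs are not reported here) and the 10 genes most like the members. The members and the lists were chosen with earlier results of these data known, and several members are in a gene list that the study drew from these libraries, so their direction is not independent evidence. A second gene model named *Gbp6* (0 and 12 UMIs) was not used. Python 3.11.15, numpy 2.4.6, scipy 1.17.1, pandas 2.3.3, scanpy 1.11.5, leidenalg 0.10.2 and matplotlib 3.10.9 were used. Alternatives were other cell filters, Scrublet doublet calls, classes from Leiden clusters (built without the members), equal weight per cell, median-of-ratios size factors, leaving out the 1% of cells with most member UMIs, an added 10 CPM, a minimum of 20 UMIs and thinning to 1000 UMIs.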

Additional observations from a re-analysis of the deposited data

How the results depend on the processing

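No paired analysis was possible because each condition is 1 library, and for the same reason no replicate could be left out. No direction of a class sum or of a member-by-class pair was reversed under any alternative that gave it a value. The log2 ratio of the summed members moved beyond its counting interval as follows. With all deposited barcodes it was 3.91 in endothelial cells. With classes from clusters it was 3.79 in fibroblasts, 2.44 in chondrocytes and 2.10 in T cells, and 6 of the 10 classes kept their place in the ACD order. With each cell weighted equally it was 3.72 in fibroblasts, 2.66 in pericytes, 3.36 in endothelial cells, 2.11 in T cells and 2.83 in myeloid cells. With median-of-ratios size factors it was 2.09 in T cells. Without the 1% of cells with most member UMIs it was 3.02 in pericytes, 3.88 in endothelial cells, 2.06 in chondrocytes and 4.84 in glia. The cause of these shifts was not tested. The count of pairs at least 2-fold higher was 86 to 89 under the other cell filters, doublet calls, clusters, size factors and without the top cells. It was 77 with each cell weighted equally, where 80 pairs have a value because pairs with no control UMI give none. With 10 CPM added it was 79, of which 6 are in NK cells, with 5 control cells, and 73 are among the 90 other pairs. The count of 87 of 90 pairs without NK cells was chosen after seeing the data.

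The share of all genes at least 2-fold higher differed with the minimum and with an added value. From 20 UMIs it was 4.93% in fibroblasts, 4.55% in pericytes, 5.67% in endothelial cells, 3.99% in keratinocytes, 3.27% in chondrocytes, 3.97% in glia, 3.29% in melanocytes, 5.13% in T cells, 2.96% in NK cells and 9.5% in myeloid cells. With 10 CPM added on each side it was 0.811%, 1.52%, 2.88%, 1.59%, 0.301%, 1.72%, 1.45%, 1.14%, 32.3% and 5.28% in the same order. Thinning to 1000 UMIs in place of 2000 gave shares of cells with a member UMI in control and ACD of 6.57% and 39.2% in fibroblasts. They were 21.4% and 64.8% in pericytes, 16.2% and 72.3% in endothelial cells, and 3.23% and 10.3% in chondrocytes. Glia were at 5.41% and 51.0%, melanocytes at 13% and 58.5%, and T cells at 12.4% and 40.2%. NK cells were at 0% and 30.5% (0 of 5 control cells, of which 60% had one at 2000 UMIs, so no contrast can be read). Keratinocytes were at 0.641% (1 of 156 cells) and 13%. Among myeloid cells 20.6% held a member UMI in ACD, and 93.5% of 108 control cells held none. At 2000 UMIs, 87.3% of 79 control and 71.5% of 404 ACD myeloid cells held none.

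Depth limits keratinocytes (13 control member UMIs), myeloid cells (43) and NK cells (6), where single ratios rest on 0 to 18 control UMIs.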
